A study of Homo sapiens with 20 samples.

Results

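In K562 cells without intact NAT10, an antibody against N4-acetylcytidine (ac4C) and a normal rabbit IgG gave 2 peak lists, and 16427 of the 80709 antibody (IP) regions had no overlapping base in the IgG list. These IP-only regions are 20.4% of the IP list, and the 9454 IgG-only regions are 12.2% of the 77342 IgG regions. The lists differ in their lowest fold, 2.085 in IP and 2.278 in IgG. With a fold of at least 4 in both lists the shares were 15.6% and 12.9%. A region was a unique transcript, start and end, and the lists were compared on the same transcript. The other 64282 IP regions were shared and carry an IP over IgG ratio. K562 is a chronic myeloid leukaemia line with erythroid potential, and exon 5 of NAT10 was deleted in it with CRISPR-Cas9. Whether the knockout line is 1 clone is not stated. The knockout has 2 libraries each for IP, IgG and input, 6 of the 20 samples of the series. Total RNA was depleted of ribosomal RNA and broken to about 100 nt, and the pieces were bound to beads that carried either antibody. Parental K562 cells with intact NAT10 have libraries of the same kinds. Whether both genotypes were processed together was not tested. The peak names mark the lists as merged, so each antibody has 1 list per genotype, and no test between the lists is possible.

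NAT10 is the acetyltransferase that makes ac4C, which is best established in 18S ribosomal RNA and, with the adaptor THUMPD1, in serine and leucine transfer RNA. Its presence and extent in messenger RNA are debated. Antibody regions that remain in a knockout, and regions bound by IgG, are the background against which such a map is read.

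NAT10 itself was read first. The knockout RNA-seq libraries gave NAT10 903 and 925 counts, against 1439 and 1837 in the wild type libraries. Scaled to library totals (CPM), that is 49.9 and 49.3 for knockout, against 139 and 144 for wild type. The log2 change was -1.51 (SE 0.0852, edgeR adjusted p = 0.000102). Counts are summed over all exons, so reads outside the deleted exon remain in them. NAT10 transcripts held 13 IP regions in the knockout, 3 of them IP-only, with folds of 2.19 to 5.00, and 14 IgG regions, 2 of them IgG-only, with folds of 2.28 to 4.41. RNA-seq depth was 18093324 and 18778485 counts for the knockout libraries, against 10388717 and 12725302 for the wild type ones. All 8 erythroid leukaemia markers were above 1 CPM in every RNA-seq library, with a summed level of 1360 to 1380 CPM in knockout and 1270 to 1310 CPM in wild type. Markers of other cell types were lower. The 4 fibroblast markers summed to 2.10 to 2.50 CPM in knockout and 2.79 to 3.46 CPM in wild type. The 4 lymphocyte markers summed to 28.3 to 31.0 CPM in knockout and 39.6 to 42.1 CPM in wild type, with MS4A1 at 0 throughout, and the 4 epithelial markers to 31.5 to 35.2 CPM and 40.9 to 49.3 CPM, with KRT14 at 0. The 2 liver markers stayed below 1 CPM.

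IP-only regions were low and narrow. Their median fold was 3.02, close to the lowest fold in the list of 2.09, against 5.94 in shared IP regions. Their median width was 197 bases, against 338 in shared IP regions. IgG-only regions had a median fold of 3.27 and a median width of 181 bases. A fold of at least 4 was reached by 2624 IP-only regions, or 16%, and by 73.9% of shared IP regions. The fold is the authors' value in the column for fold over input, and within each list every fold had a single q-value. Folds also lay on whole multiples of 1 step per list, within 0.02 of a step for all but 5 rows of the IP list and 3 of the IgG list. The step was 0.104 in IP and 0.142 in IgG, as a coverage divided by 1 constant per list, and not by the local input, would give. The part of transcript abundance in the folds was not tested. At the edge of the rule, 29 IP regions shared 1 to 10 bases with an IgG region, with a median fold of 2.71. Another 20 IP-only regions ended within 10 bases of an IgG region, with a median fold of 2.50.

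**Figure D1:**
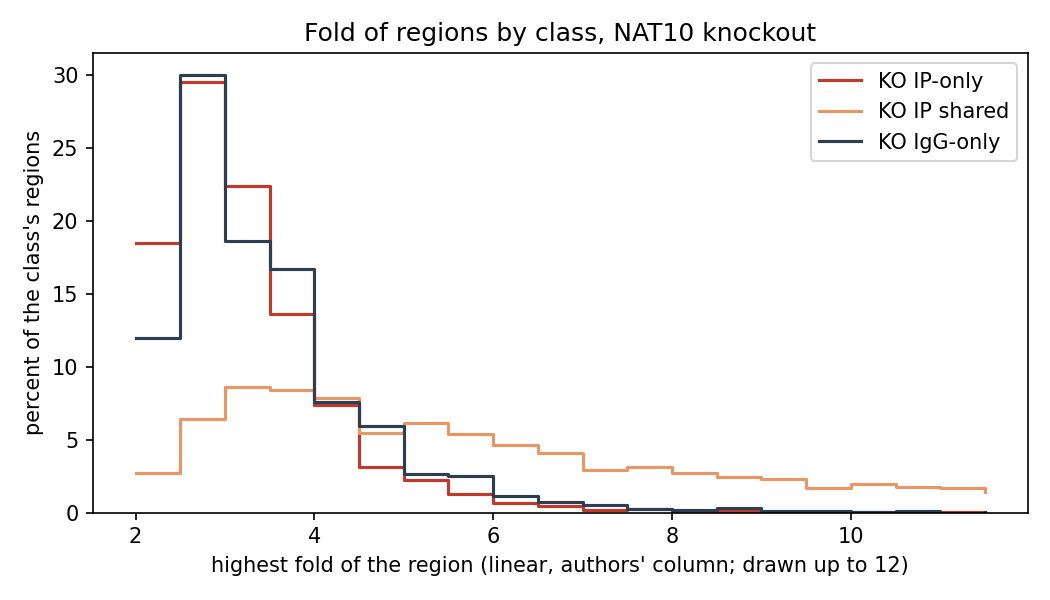
Distribution of the highest fold per region in the knockout lists, on a linear axis drawn up to 12, as the percent of each class. IP-only and IgG-only regions crowd near the lowest folds, with medians of 3.02 and 3.27, while shared IP regions spread higher, with a median of 5.94.

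Most IP-only regions lay on genes that IgG also bound. Of the 16427, 8565 (52.1%) were on a transcript with an IgG region elsewhere, and 6203 (37.8%) were on a transcript without one whose gene had one on another transcript. The remaining 1659 (10.1%) fell in 1228 genes with no IgG region on any transcript, which is 6.73% of the 18260 genes with an IP region. In the opposite direction 860 IgG-only regions fell in 708 genes with no IP region. Of the 1228 genes 976 had a single IP-only region and 97 had at least 3. Over all 6777 genes with an IP-only region, 2188 (32.3%) had it on 1 of several transcripts with an IP region. Isoforms share sequence, so regions of 1 gene are not independent.

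Genes with an IP-only region and no IgG region had a median level of 0.911 and 0.929 CPM per kilobase of the longest listed transcript in the 2 knockout RNA-seq libraries. Genes with IP-only regions and an IgG region elsewhere had medians of 12.4 and 12.6, and genes whose IP regions were all shared 0.265 and 0.269. The genes without an IgG region lay between the other groups.

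The small RNAs carried the highest IP-only fold. SNORA65, a box H/ACA small nucleolar RNA (snoRNA) of the class that guides pseudouridylation, had an IP-only region with a fold of 86.5 on its transcript of 130 bases. SNORA84 followed with 35.1 and SNORA74D with 26.1. None of these 3 overlapped a wild type region, but the wild type lists hold 0 snoRNA regions in all. The weaker snoRNA regions, SNORA59B at 7.40, SNORD114-3 at 4.48, SNORD101 at 3.96 and SNORA70G at 2.40, complete the 7 IP-only regions among 30 snoRNA regions. That is 23.3%, near the 20.4% of all IP regions. On the IgG side 2 of 25 snoRNA regions (8.0%) were IgG-only, against 12.2% of all IgG regions. These were SNORD100 with a fold of 3.84 and AC007240.1 with 4.27. Many of these regions run past the end of the annotated transcript, as SNORA65 does to base 193.

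Shared regions on these RNAs leaned to the IP. Small Cajal body RNAs (scaRNAs) guide modification of spliceosomal RNA. All 8 shared regions labelled scaRNA had a higher fold in IP. Their median log2 IP over IgG ratio was 0.94, or 1.39 with folds counted in steps of each list. SCARNA16 had a fold of 56.9 in IP and 18.9 in IgG, SCARNA2 306 and 181, and SCARNA13, the lowest of the 8, 35.9 and 23.5. In wild type the only scaRNA region, on SCARNA7, was shared, with a fold of 12.2 in IP and 12.6 in IgG. Of 23 shared snoRNA regions 21 were higher in IP, with a median of 0.46, or 23 with a median of 0.91 in steps. These 23 include SCARNA10, with 79.9 in IP and 51.7 in IgG, and SCARNA12, with 31.7 and 17.5, which carry the snoRNA label. SNORA23 had 116 in IP and 63.2 in IgG, while the abundant SNORD3A (U3), needed for early cleavage of the ribosomal RNA precursor, had 595 and 499. Across all shared regions 48.7% were higher in IP with a median of -0.01, and 86.1% with a median of 0.44 in steps, so the lean of both classes is read against those medians.

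Most ribosomal RNA regions leaned to IgG in the knockout. Regions of the snRNA class, which includes RN7SK, had medians slightly below those of all shared regions. Of 30 shared snRNA regions 3 were higher in IP, against 48.7% of all shared regions, with a median of -0.15 against -0.01. In steps 29 were higher, against 86.1%, with a median of 0.30 against 0.44. Most of the 30 were near-identical U1 and U2 copies whose reads the mapping may have split. RN7SK, which holds the elongation factor P-TEFb inactive, had the highest fold in both lists, 1500 in IP and 1780 in IgG. The mitochondrial ribosomal RNAs MT-RNR1 and MT-RNR2 had folds of 18.9 and 12.9 in IP, against 88.0 and 85.8 in IgG, and were also lower in IP in steps. In wild type their folds were closer, 26.5 and 70.3 in IP, against 24.4 and 76.8 in IgG. The 5.8S copies RNA5-8SN3 and RNA5-8SN2 had folds of 29.9 and 26.0 in IP, against 106 and 105 in IgG. A weaker 5.8S region had 3.55 in IP and 3.70 in IgG, and was higher in IP in steps. Another, with a fold of 4.48, was IP-only. All 17 RNA5S copies of 5S ribosomal RNA had an IgG-only region with a fold of 7.12 to 22.2, and the IP list held 0. These copies are near-identical and are not 17 separate observations. Ribosomal RNA was depleted before the immunoprecipitation, and how evenly was not tested.

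**Figure D2:**
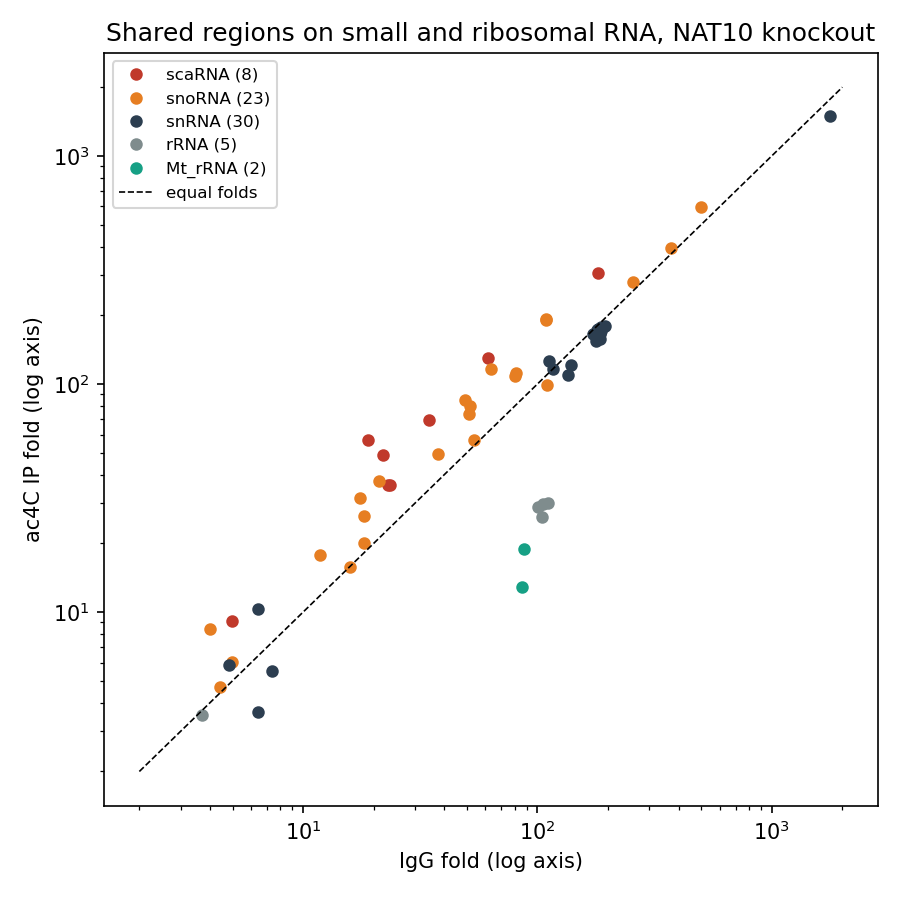
Fold in the IgG list (horizontal, log axis) against fold in the ac4C IP list (vertical, log axis) for each shared knockout region on 5 RNA classes, with folds as deposited and equal folds dashed. The 8 scaRNA regions and 21 of 23 snoRNA regions lie above the line, while both mitochondrial ribosomal RNAs and the 5 ribosomal RNA regions lie below it.

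IP-only regions lay on 4 microRNA genes, of 15 IP regions on microRNA genes (26.7%, against 20.4% of all IP regions). On the IgG side 3 of 14 regions there were IgG-only (21.4%, against 12.2% of all IgG regions). MIR4292 had a fold of 4.28, MIR5010 3.96, MIR548Y 3.86 and MIR7111 3.75. Their mature sequences, from RefSeq on GRCh38.p14, are shown because these are the shortest named products on IP-only transcripts. Capitals mark the seed, bases 2 to 8, and the 6 seeds differ.
hsa-miR-4292: cCCCUGGGccggccuugg
hsa-miR-5010-5p: aGGGGGAUggcagagcaaaauu
hsa-miR-5010-3p: uUUUGUGUcucccauuccccag
hsa-miR-548y: aAAAGUAAucacuguuuuugcc
hsa-miR-7111-5p: uGGGGGAGgaaggacaggccau
hsa-miR-7111-3p: aUCCUCUCuucccuccucccag
The RNA was broken to about 100 nt, so reads there need not come from the mature forms.

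Among transcript classes, protein-coding transcripts held 9542 IP-only regions, or 58.1% of them, against 53.4% of shared IP regions. Within the protein-coding class 21.8% of IP regions were IP-only and 12.9% of IgG regions were IgG-only. Transcripts marked for nonsense-mediated decay had 24.8% and 14.7%, and retained-intron transcripts 20.4% and 9.85%. Long non-coding RNAs stood lower on the IP side, with 12.7% IP-only and 11.7% IgG-only.

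On protein-coding transcripts the IP-only regions lay towards the 5′ end and the IgG-only regions towards the 3′ end. Transcripts were divided into 3 equal parts. The summit, the point of highest fold, was in the 5′ part for 42.2% of IP-only regions, 28.9% of shared IP regions and 20.7% of IgG-only regions. It was in the 3′ part for 26.9%, 38.7% and 49.0% of them. Among regions of at most 300 bases the 5′ part held 42.4% of IP-only, 25.2% of shared and 21.1% of IgG-only regions. In 4 bins of transcript length the 5′ part held 37.4% to 43.2% of IP-only regions and 16.4% to 23.5% of IgG-only regions. Shared regions had the same tilt in their ratio, with a median log2 IP over IgG of 0.13 in the 5′ part and -0.08 in the 3′ part. In wild type the 5′ part held 29.9% of IP-only and 22.7% of IgG-only regions. Fragmentation and RNA integrity of each library were not tested.

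**Figure D3:**
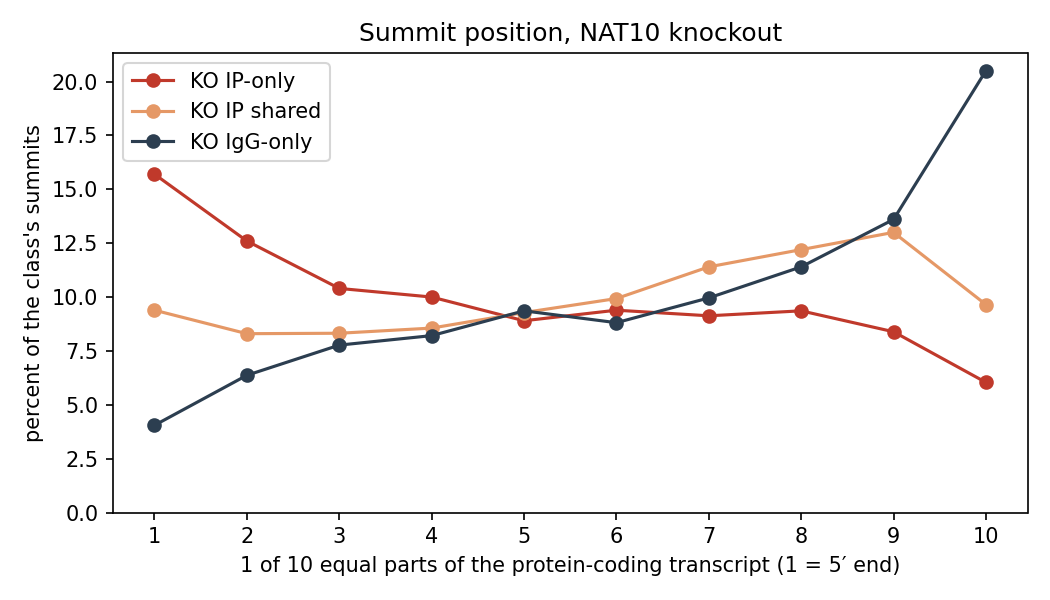
Percent of summits in each of 10 equal parts of the protein-coding transcript, from the 5′ end, for the knockout classes. The first part holds 15.7% of IP-only, 9.39% of shared IP and 4.05% of IgG-only summits, and the last 6.04%, 9.65% and 20.5%.

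The protein-coding IP-only regions with the highest fold were on genes of different roles, and positions are bases of the transcript, counted from 1. AP1S3 on chromosome 2, a clathrin adaptor subunit, had a fold of 13.2 at bases 598 to 772 of ENST00000443700.5, 1 of its 4 transcripts with an IP region. CDV3 had 12.3, the histone gene H3-2 11.4, the polyadenylation factor WDR33 10.4, the mitochondrial ribosomal protein MRPL46 10.3, the G protein subunit GNAI2 9.70 and the microRNA processing factor DGCR8 9.59. The signal-regulatory receptor SIRPA, which binds CD47, differed from these in that its gene had no IgG region. Its 4 transcripts, from chromosome 20, carried IP-only folds of 9.38, 10.3, 9.28 and 11.2, the last at bases 1946 to 2128 of ENST00000622179.4, and neither wild type list had a region on it. Its RNA was 2.43 and 2.45 CPM in knockout, against 14.1 and 12.3 CPM in wild type, a log2 change of -2.43 (SE 0.214, edgeR adjusted p = 0.000591). PRG2, a granule protein of eosinophils, had 5 IP-only regions on 4 transcripts with folds of 4.07 to 9.18 and no IgG region, and is named after its values were seen. Wild type had 1 IP region on PRG2, with a fold of 2.23. RNA-seq gave PRG2 0 and 1 counts for knockout, against 4 and 0 for wild type.

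On transcripts of other classes, a retained-intron transcript of RPS27, a small-subunit ribosomal protein on chromosome 1, had an IP-only fold of 20.7 at bases 27 to 226. The lncRNA Z93241.1 had 19.8, with no IgG region on its gene, and a retained-intron transcript of the histone variant gene H2AZ1 had 13.7. The 7 protein-coding genes besides SIRPA had an IgG region elsewhere on the gene.

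The genes with most IP-only regions were partly genes with many regions of any kind, to be read against the 20.4% of all IP regions. The imprinted antisense RNA KCNQ1OT1 had 12 on 1 transcript, of 46 IP regions, and 5 of its 39 IgG regions were IgG-only. The lncRNA XACT had 11 of 156, below that share, with 11 of 158 on the IgG side. SMCR8, an autophagy regulator, had 9 of 11 IP regions IP-only and 0 of 2 IgG regions IgG-only. The calcineurin inhibitor CABIN1 had 29 of 41 IP regions IP-only over 8 transcripts, against 1 of 13 on the IgG side. TRRAP, a scaffold of histone acetyltransferase complexes, had 26 of 70 against 10 of 48, and the antisense RNA PPM1F-AS1 9 of 25 against 0 of 18. RTEL1, a helicase that protects telomeres, had 12 IP-only regions on 8 transcripts and no region in the IgG list.

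Gene lists were read against the 37.1% of genes with an IP region that held an IP-only one, and the 27.0% on the IgG side. Among heme synthesis genes 11 of 19 held an IP-only region and 2 of 18 an IgG-only one. BLVRA, biliverdin reductase, had an IP-only fold of 4.90. ALAS1, the housekeeping form of the first heme enzyme, had no IgG region. Of 27 erythroid regulators 12 held an IP-only region, with MYB at 4.28, and 11 of 26 an IgG-only one. EPOR, the erythropoietin receptor, had no IgG region. Of 8 globin genes only HBM held one, with a fold of 5.42, and RNA-seq gave HBM 0 and 3 counts for knockout, against 0 and 2 for wild type. On the IgG side 1 of 9 globin genes held an IgG-only region, and by regions 1 of 23 was IP-only and 4 of 26 IgG-only. Red cell membrane genes had 14 of 24, among them ADD1 with a fold of 6.88, and 9 of 23 on the IgG side.

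RNA modification genes stood at 31 of 43, with 20 of 41 on the IgG side. The m6A demethylase FTO had a fold of 5.73, the pseudouridine synthase PUS1 5.32 and the m6A reader YTHDC1 5.11. CTU2, of the tRNA thiolation complex, and ZC3H13, of the m6A writer complex, had no IgG region in the knockout, though all 6 CTU2 regions overlapped a wild type IgG region. Cholesterol synthesis genes had 13 of 21, against 7 of 21 on the IgG side. Glycolysis genes had 11 of 17 against 3 of 17 on the IgG side. Cytosolic ribosomal protein genes had 34 of 79, against 17 of 79. Replication histones had 3 of 50. Ribosome biogenesis genes had 27 of 44, with the methyltransferase fibrillarin FBL at 8.03, against 17 of 44 on the IgG side. Splicing and hnRNP genes had 38 of 61 against 24 of 61, with SFPQ at 10.8. Translation factors had 21 of 41 against 14 of 41, and tRNA synthetases 12 of 20 against 11 of 20. Mitochondrial ribosomal proteins had 36 of 77 against 18 of 75, and iron handling genes 7 of 16 against 4 of 14. Chaperones had 10 of 35 against 11 of 35 and snoRNA host genes 10 of 22 against 12 of 23. Of 17 mitochondrially encoded genes only the transfer RNAs MT-TA, with a fold of 3.44, and MT-TV, with 2.09, held an IP-only region. RNA-seq gave MT-TA 0 counts in every library, and MT-TV 65 and 50 for knockout against 7 and 61 for wild type. Counted by regions the order of the lists changed. Against 20.4% of all IP regions, the IP-only share was 36.0% for cholesterol synthesis, 33.4% for RNA modification, 28.3% for red cell membrane and 24.7% for heme synthesis. It was below that for tRNA synthetases (17.1%), ribosome biogenesis (14.7%), glycolysis (14.2%), translation factors (13.3%), splicing and hnRNP genes (10.7%) and cytosolic ribosomal proteins (5.50%). These lists differ in how many transcripts and regions each gene has, which was not adjusted for. Nor were the IP and IgG sides adjusted for the different lowest folds of the 2 peak lists.

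**Figure D4:**
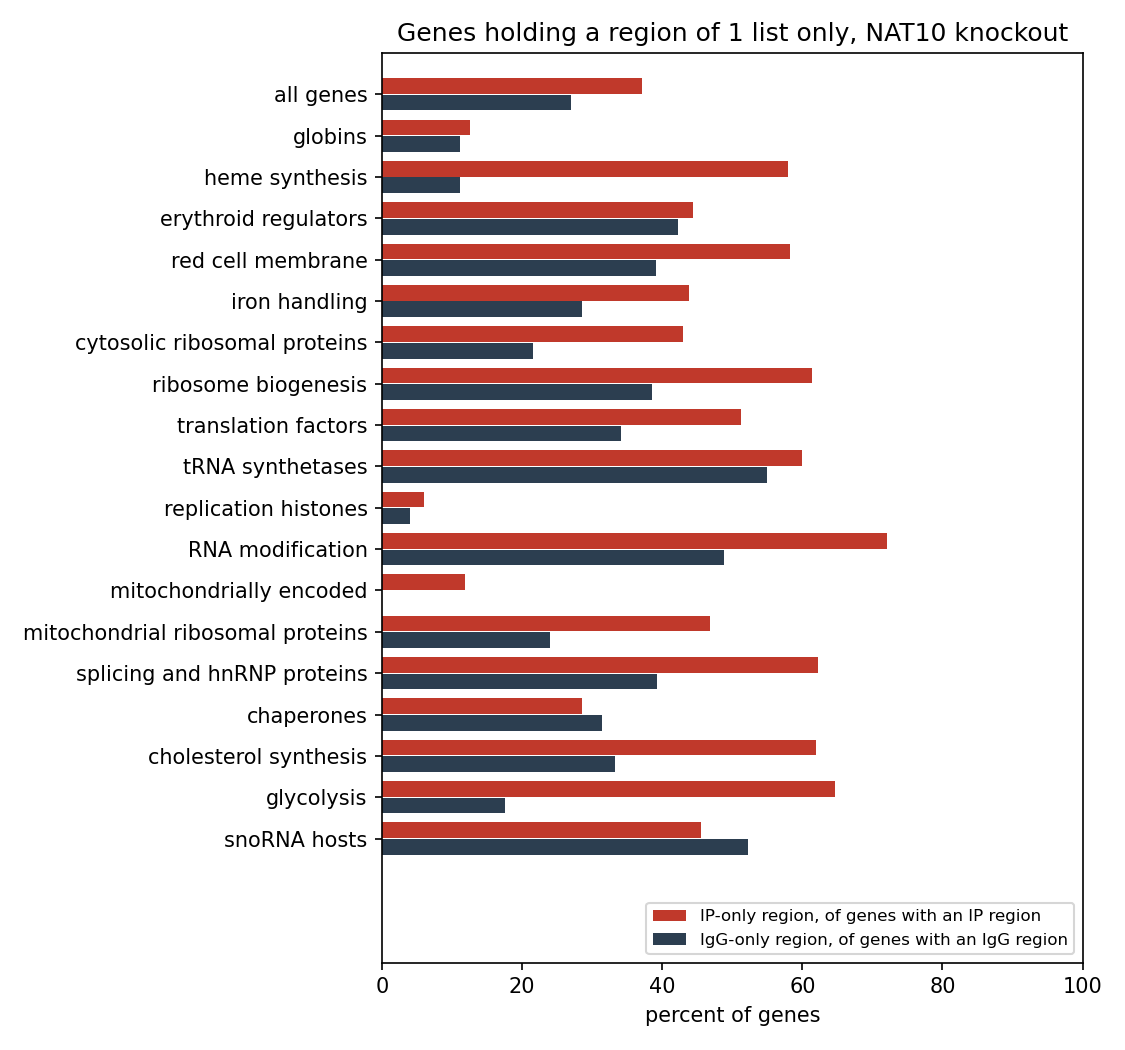
Percent of the genes with an IP region that hold an IP-only region (upper bar) and of the genes with an IgG region that hold an IgG-only region (lower bar), for all genes and 18 gene lists. RNA modification stands at 72.1% and 48.8%, replication histones at 6.00% and 4.00%, and all genes at 37.1% and 27.0%.

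In the 64282 shared regions the 2 antibodies gave nearly equal folds. The median log2 IP over IgG ratio was -0.01, with 5% of regions below -0.75 and 5% above 0.67. A ratio of at least 1 was reached by 723 regions and one of at most -1 by 1459. Counted in steps of each list the median was 0.44 and these counts were 5231 and 459, so the level of this ratio depends on the constant each list was divided by, and only differences between regions can be read. The highest ratios were on RPL32, with a fold of 70.0 in IP and 4.98 in IgG, and the lncRNA AC092720.1, with 273 and 19.9. The lowest were on the lncRNA HELLPAR, with 6.05 in IP and 182 in IgG, and a retained-intron transcript of RPLP1, with 3.75 and 104. FAM169B had 50.8 and 4.98, and NKAIN3, among the lowest, 3.44 and 75.6. RNA-seq gave NKAIN3 4 and 1 counts for knockout, against 1 and 2 for wild type. Each ratio divides the highest folds of 2 regions that may overlap only in part, so these heights can lie at different bases. On RPL32 the IP summit at base 1553 lay outside the IgG region, which covered bases 122 to 1123. On HELLPAR the IP region covered bases 109447 to 109957 and the IgG region 109785 to 111802. In wild type 42273 shared regions had a median of 0.00, and 12 reached 1.

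**Figure D5:**
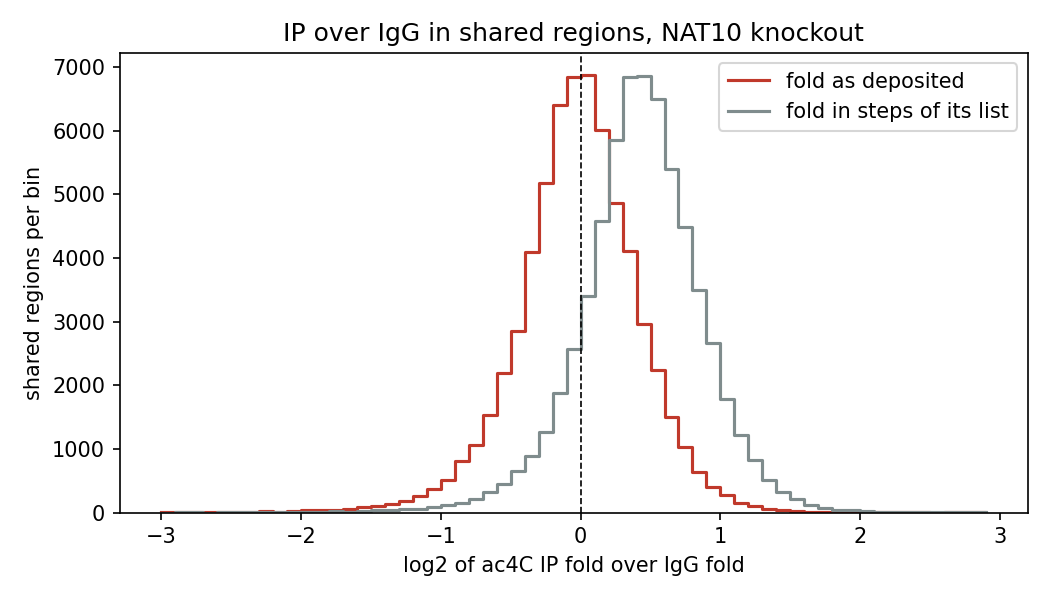
Number of shared knockout regions by log2 of IP fold over IgG fold, in bins along the horizontal axis, with folds as deposited and counted in steps of each list. The deposited values centre at -0.01 and the stepped values at 0.44, with equal folds dashed.

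The wild type lists were compared by overlap. Of the 16427 knockout IP-only regions 44.7% overlapped a wild type IP region and 43.9% a wild type IgG region, and 53.3% overlapped neither. Only 314 (1.91%) overlapped a wild type IP-only region, which touches 306 (10.1%) of the 3017 wild type IP-only regions. Of shared knockout IP regions 1.26% overlapped one. IP-only regions were 6.66% of the wild type list, and the IgG-only share was 6.46%. The wild type lists hold 45290 IP and 45426 IgG regions, with wider regions and another fold step, so the genotypes' shares are side by side and were not compared.

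Genes with IP-only regions were followed in RNA-seq, where 14% of all 16277 tested genes changed. Of 5691 tested genes with an IP-only region 979 (17.2%) changed in knockout against wild type, 361 higher and 618 lower (6.34% and 10.9%), with a median log2 change of 0.01. Over all tested genes 5.17% were higher and 8.79% lower. The median absolute log2 change was smaller in genes with an IP-only region, 0.176 against 0.237 over all tested genes. The shares called were not adjusted for expression level. Of the 673 tested genes with no IgG region 86 (12.8%) changed, 22 higher and 64 lower. Genes with IgG-only regions had 601 of 3766 (16%). The count of 979 was 455 with DESeq2 (7.10% of members, 2.82% of all genes) and 2340 with the knockout libraries kept apart (41.1% of members, 34.1% of all genes). DESeq2 was run without the filter on low counts. Its 2.82% therefore also covers genes that the edgeR filter left out, and is not on the same base as the 14%. OS9, an endoplasmic reticulum lectin with 8 IP-only regions, all of which overlapped a wild type IgG region, had 33.8 and 34.8 CPM in knockout against 51.5 and 53.2 CPM in wild type, a log2 change of -0.61 (SE 0.104, edgeR quasi-likelihood adjusted p = 0.00835). GNAI2 had 68.4 and 65.8 CPM in knockout against 96.5 and 89.3 CPM in wild type, a log2 change of -0.47 (SE 0.0744, edgeR adjusted p = 0.00619), a call that DESeq2 did not make. SNORA65 had 31.0 and 29.6 CPM in knockout against 41.6 and 90.1 CPM in wild type, and its log2 change of -1.14 did not pass (SE 0.374, edgeR adjusted p = 0.0855).

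Translation efficiency, footprints over RNA, was called by edgeR for 0.0% of 8821 genes. Of 4593 genes with an IP-only region 0 passed, and 430 (9.36%) had an unadjusted edgeR p under 0.05. Over all tested genes 828 (9.39%) had such a p. DESeq2, without the filter on low counts, called 13 genes with an IP-only region (0.243% of members, against 0.183% of all genes). The knockout libraries held 1173526 and 621287 footprint counts and the wild type libraries 1220308 and 911336.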

How the data were processed

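The authors deposited peak lists on transcripts, 1 per antibody and genotype against input, and the file headers carry none of the settings. Per the submitters' processing notes Bowtie2, MACS2, bedtools and ChIPseeker were used for acRIP-seq, and cutadapt, Trimmomatic, STAR, SAMtools and featureCounts for other libraries, on GRCh38.p13. Versions and the strand setting are not given in the sources used here. The deposited columns hold a fold, the −log10 of the q-value, a peak score and the summit position. The fold stands in the column for fold over input, though its steps are as 1 constant per list would give. RNA-seq and Ribo-seq values are deposited whole-number counts per gene.

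From these, unique regions were taken with Python 3.11.15, pandas 2.3.3 and numpy 2.4.6, the highest fold of a region was kept, and 1 shared base made a region shared. Counts were tested over all genes in R 4.3.3 by the quasi-likelihood test of edgeR 4.0.16 (filterByExpr, TMM, Benjamini-Hochberg, threshold 0.05) and with DESeq2 1.42.0 as an alternative. The 2 knockout RNA-seq libraries differed by 1.03 times counting noise, against 12.5 in wild type, and were summed as 1 sample, assumed to vary like wild type. Separate cultures are not stated for the replicates; the p-values then reflect only library-to-library spread, possibly technical.

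Genes were named by rule: NAT10, the IP-only regions with the highest −log10 q and fold, the genes with most of them, the extreme ratios, and up to 3 members per list. RTEL1, OS9, PRG2 and the genes without an IgG region were added after their values were seen. Members and lists were chosen with earlier results of these data known. The overlap code and the fits were tested on simulated data. Base composition was not analysed here. Some genes that the rule names are not reported here.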

Additional observations from a re-analysis of the deposited data

How the results depend on the processing

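With a q-value of at least 5 (−log10) in both lists, or every summit counted, the IP-only and IgG-only counts stayed within 1.5 times 16427 and 9454. A reciprocal overlap of 50% gave 27193 IP-only and 23826 IgG-only regions, the stricter q in the list read alone 10496 and 5479, 1 transcript per gene 5464 and 3398, and no region of the other list on the gene 1659 and 860. A fold of at least 4 in both lists gave 7809 IP-only and 6534 IgG-only regions (15.6% and 12.9%). The median log2 ratio was -0.027 with mean summits, -0.034 with 1 transcript per gene, -0.020 with the stricter q, and 0.44 in steps, an alternative chosen after seeing the data. The share in the 5′ part was 45.7% with 1 transcript per gene and 45.6% in genes without an IgG region, also chosen after seeing the data. The protein-coding share was 61.5% with 1 transcript per gene.

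Among genes with IP-only regions the RNA count of 979 was 455 with DESeq2 (7.10% of tested, against 2.82% of all genes) and 2340 with the knockout libraries apart. The DESeq2 shares include genes that the edgeR filter on low counts left out. Without knockout replicate 1 or 2 it was 901 to 923. Leaving out a wild type library left no residual degree of freedom for RNA. For efficiency the count was 28 without a filter, 13 with DESeq2, 1 with the knockout libraries apart, and 0 to 2 leaving out each replicate. Across genes, the difference between replicates 1 and 2 in knockout correlated with that in wild type at -0.0352 in RNA and 0.344 in footprints. The main fits did not take the numbers as pairing, and whether the footprint value reflects paired handling was not tested. With the replicate block the counts were 2119 in RNA (37.2%, against 31.1% of all genes) and 131 in efficiency (2.85%, against 2.91%).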
